A study of Mus musculus with 8 samples.

Results

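Some loci of an annotation lie, exon for exon, under the exons of another locus, so that a read from them meets both. Such covered loci were studied here in mouse bone marrow-derived macrophages. A locus was taken as covered when it held at least 1 transcript equal to a reference transcript (class code = in the authors' merged annotation) and more than 95% of its merged exonic nucleotides (nt) were also covered by exons of another locus on either strand. This rule, which uses no expression value, found 544 of the 27297 loci with such a transcript, out of 31020 loci in all. The covered loci are described by FPKM, fragments per kilobase of transcript scaled by the mapped fragments of a library, because read counts are largely missing there.

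Macrophages grown from the bone marrow of C57BL/6 mice were left untreated in one group of 4 libraries and treated with IL-4, interleukin-4, in the other group of 4. Total RNA was depleted of ribosomal RNA before library making. The labels give no dose, time, sex or age, and both groups carry no further treatment or allele in the labels. The series design calls the samples of a group biological replicates and does not say whether each came from its own mouse, and the p-values therefore cover only sample-to-sample spread.

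Genes on opposite strands often run into each other, most often tail to tail where both 3′ ends extend past the same point, and a short gene can also lie inside a long exon or untranslated region of a gene on the other strand. Counting programs commonly set aside a read that meets several loci, while transcript assembly programs such as Cufflinks share it out by likelihood, using spliced reads and the shape of each isoform. IL-4 is a cytokine of type 2 immunity that moves macrophages into a state often called alternative activation. No gene names stand beside the IDs of the files, and 0 of the 917 reference transcript identifiers of covered loci occur in the reference tables used here. Loci are therefore given by their position in the mouse build mm9, by class and by exonic length, and what their products do is not stated. For the same reason no macrophage marker could be looked up to check the cell type label.

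Libraries held between 23071022 and 27783417 counts in total. The fragments behind a single FPKM value are unknown.

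In all 544 covered loci the strand of the main covering locus differed from that of the covered one, and 0 were covered from the same strand. A covering locus without an assigned strand would count as differing here. A single overlapping locus was found at 533 of them and several at 11. The 544 loci lay under 468 distinct covering loci. Of these, 32 covered several loci each, 108 loci in all, and 1 of them covered 13 short loci of chromosome 12. Loci under the same covering locus are not separate cases. In 22 covered loci the covering locus was itself a covered locus of the set.

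The layouts were uneven. The covered locus lay wholly inside the span of its covering locus in 442 cases, met it tail to tail in 76, enclosed it in 18 and met it head to head in 8. The overlap fell on the last exon of the covering locus in 262 cases, the first in 88, an inner one in 84, several exons in 67 and the only exon in 43. The covering exons were long. Taking the longest covering exon at each locus, the median was 6175.5 nt, with quartiles of 3296 and 12530 nt and extremes of 97 and 51895 nt.

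A single isoform of the covering locus covered more than 95% of the covered locus in 507 cases. That isoform was a reference one (class =) in 232 cases, an assembled variant that shares a splice junction with a reference transcript (class j) in 220 and of another class in 55. Class = transcripts of the covered locus were also laid over those of its main covering locus alone, with ends as in the merged annotation. In this way 309 loci were still covered by more than 95%, 100 by between 5% and 95%, and 135 by less than 5%. In those 135 loci the cover thus involved transcripts of other classes or further loci. The covering locus held a reference transcript in 509 cases and none in 35.

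By class, 306 covered loci were protein-coding (a transcript carries a coding-sequence identifier), 125 were non-coding with at least 200 exonic nt, and 113 were non-coding and shorter. In 264 cases a protein-coding locus lay under another protein-coding locus. Several exons were present in 313 covered loci and a single exon in 231.

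Counts were missing over most of the set. Of the 544 covered loci, 439 had 0 counts in all 8 libraries, among them 216 of the 306 protein-coding loci, 110 of the 125 long non-coding ones and all 113 short ones. Among the 26753 other loci with a reference transcript, 9431 had 0 counts. These were 4527 of 19683 protein-coding, 1418 of 3219 long non-coding and 3486 of 3851 short ones. Not every 0 is a lost count, since 115 covered loci and 10106 others were at 0 FPKM in all libraries. Among expressed loci the loss was sharp in overlap. Among loci with a reference transcript and at least 1 FPKM in at least 4 libraries, 24 of 6536 without any overlap had 0 counts, and the median locus there had 7928 counts over all libraries. Between 60% and 80% overlap 0 of 419 had 0 counts, with a median of 1475 counts. Between 80% and 95% there were 3 of 263, with a median of 305 counts. Above 95% but under full overlap there were 56 of 152 (36.8%), with a median of 3 counts. At full overlap 181 of 181 had 0 counts.

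**Figure D1:**
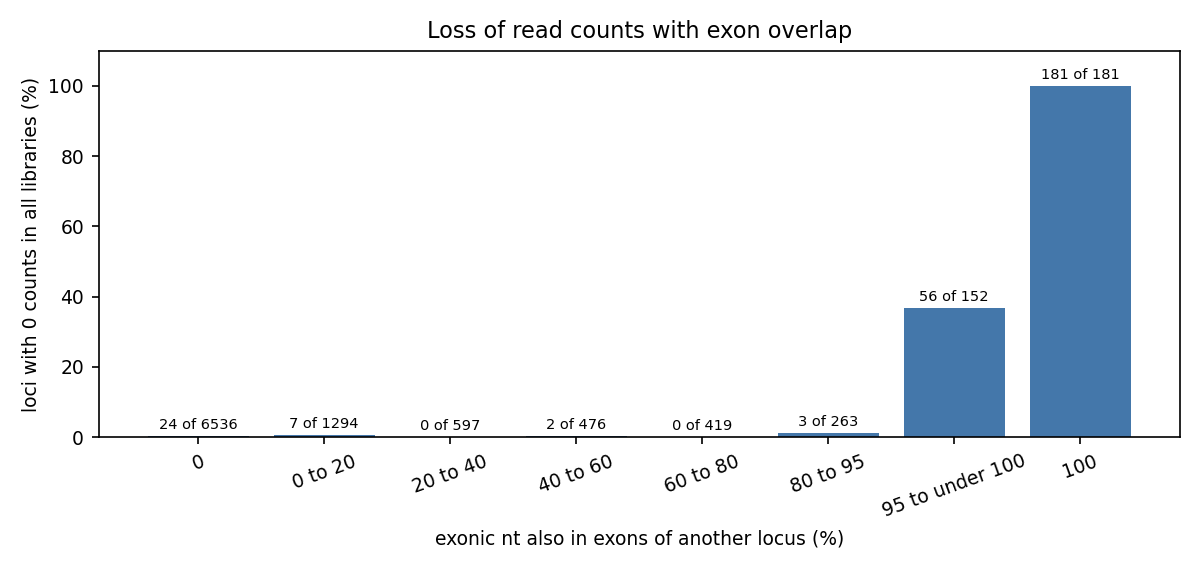
Loci with a reference transcript that passed the FPKM filter, by the percent of exonic nt covered by exons of another locus (x axis). The y axis gives the percent of loci with 0 counts in all 8 libraries. Bars stay under 2% up to 95% overlap and reach 36.8% and 100% in the last pair of bins.

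The same held for loci at 10 FPKM or more. There, 7 of 3079 loci without overlap had 0 counts, against 38 of 102 between 95% and full overlap and 116 of 116 at full overlap. Covered loci with high FPKM were common. A mean of at least 10 FPKM was reached by 218 covered loci, 154 of which had 0 counts, and a mean of at least 100 FPKM by 44, 35 of which had 0 counts. A count table thus lists at 0 loci that the FPKM table places among the abundant ones.

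At covered loci that passed the FPKM filter, the isoforms of the covering locus that reach into them were usually scarcer than the covered locus. No filter was set on the covering side here, so this choice of loci favours the covered level. Of the 544 covered loci, 333 passed the filter themselves, and at 402 the covering locus passed it. Over those 333 loci the summed FPKM of the reaching isoforms had a median of 8.36% of the covered level. It was under 10% at 175 loci, 132 of them with 0 counts, and under 1% at 43, 32 of them with 0 counts. At 49 loci the reaching isoforms stood above the covered locus. The labels' protocol does not say whether the libraries kept the strand of the RNA. Without strand, unspliced reads from a covered locus and from its covering locus cannot be told apart. FPKM of overlapping loci rest on how the authors' program divided shared reads, and the accuracy of that division was not tested.

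The 3 expressed loci nearest above the 95% threshold lay on chromosome 3 (87941823 to 87981996), chromosome 9 (57096087 to 57110585) and chromosome 1 (193149844 to 193176804), with overlaps of 95.02% to 95.03% and 140, 99 and 1212 counts. The 3 nearest below lay on chromosome 3 (33698692 to 33716499), chromosome 6 (28366458 to 28378390) and chromosome 11 (59268621 to 59285988), with overlaps of 94.98%, 94.95% and 94.82% and 32, 1 and 178 counts. Their FPKM, 0.902 to 20.8 just inside and 1.19 to 16.5 just outside as group means, overlapped. Counts just inside and just outside the threshold overlapped too.

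The comparison of IL-4 with untreated libraries asked which covered loci differ in abundance after IL-4. Summed FPKM of each locus was tested with limma on the log2(FPKM + 0.1) scale, two-sided, with Benjamini-Hochberg adjustment over all loci tested, at a threshold of 0.05. Folds given on it are too small for low loci. Levels are means ± SD of the 4 libraries of a group. Of the 544 covered loci, 333 had at least 1 FPKM in at least 4 libraries and were tested, 96 were above 0 somewhere but not tested, and 115 were listed at 0 in all libraries. Among the 333, 86 rose and 67 fell, 153 in all or 45.9%. Over all 10946 loci tested 51.3% were called, 25.9% rising and 25.4% falling, and the share of covered loci called lies near that background. The groups of 4 libraries did not overlap at 152 of the 333 covered loci, against 48.5% of all loci tested. The median log2 fold change was 0.06 for the covered loci and -0.0035 for all loci. Changes of at least 2-fold were called in 12 rises, 7 of them at loci with 0 counts, and 14 falls, 10 of them at loci with 0 counts. Among the 9585 other tested loci with a reference transcript, 489 rises and 545 falls of at least 2-fold were called. Such changes were thus no more frequent among covered loci than among the others.

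By class, 81 of the 277 tested protein-coding covered loci rose and 57 fell (median log2 fold change 0.07). Of the 51 tested long non-coding ones 5 rose and 10 fell (median -0.09). Of the 113 short ones only 5 passed the filter and 0 were called. Among other loci with a reference transcript, 2450 of 9258 tested protein-coding ones rose and 2481 fell. Of 303 long non-coding ones there 56 rose and 82 fell, and of 24 short ones 2 rose and 2 fell. The share called was thus 49.8% of covered coding loci against 53.3% of the others. For long non-coding loci it was 29.4% against 45.5%. Tested covered coding loci had a median level of 21.9 FPKM, against 9.28 FPKM for other coding loci tested. By layout, 35 of 70 loci were called in tail-to-tail overlaps, 108 of 243 in loci inside the covering span, 8 of 16 in enclosing ones and 2 of 4 in head-to-head ones. Where class = transcripts alone gave more than 95% cover, 64 of 146 tested loci were called. Where they gave less than 5%, it was 52 of 110. Over all tested covered loci 45.9% were called, and over all loci tested 51.3%. Differences between these classes, and between covered and other loci, were not tested.

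**Figure D2:**
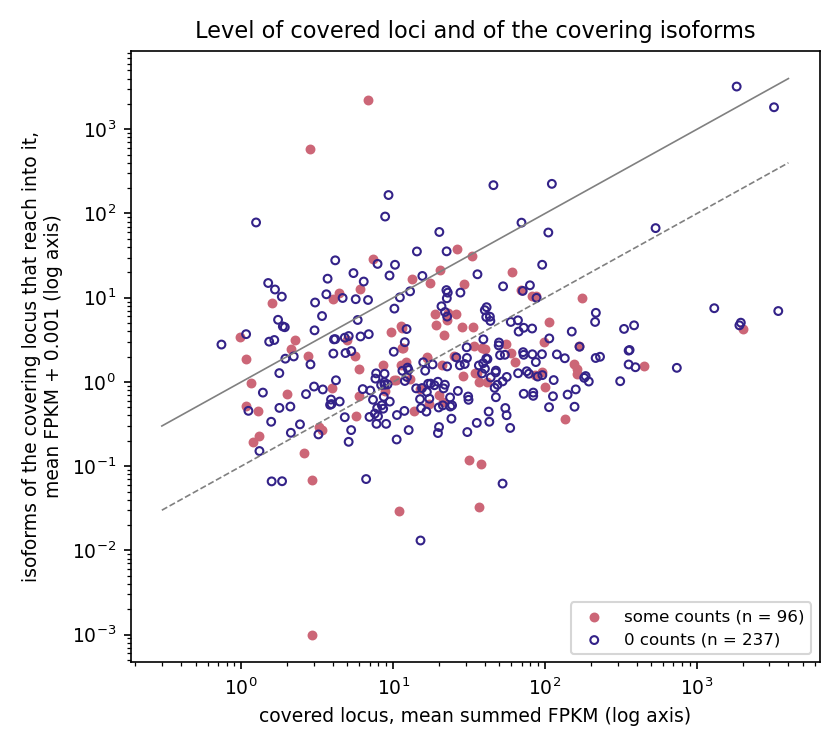
Mean summed FPKM over all libraries of each of the 333 tested covered loci (x axis, log). The y axis (log) gives the mean summed FPKM of the isoforms of the covering locus that reach into it, after adding a small constant. Filled points are the 96 loci with some counts and open points the 237 with 0 counts. The solid line marks equal levels and the dashed line 10% of the covered level. At 49 loci the reaching isoforms stood above the covered locus.

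Among the 10 largest rises by fold, the highest level with IL-4 was at XLOC_012777, a protein-coding locus of 1415 nt, 9 exons on chromosome 18 (60963503 to 60972306). Its summed FPKM was 394, 809.8, 737 and 760.0 in the untreated libraries (replicates 1 to 4) and 3053, 3629, 3625 and 2540.3 with IL-4. All 4 IL-4 libraries lay above all 4 untreated ones, and untreated replicate 1 was the lowest of all. The mean went from 675 ± 189.9 to 3212 ± 523 FPKM (log2 fold change 2.29, SE 0.23, adjusted p = 3.246e-05). This locus lies whole within the last exon of a protein-coding locus on the other strand and had 0 counts in all libraries. The covering locus was far lower, at 3.71 ± 0.364 FPKM untreated and 6.91 ± 0.962 FPKM with IL-4, and rose too (log2 fold change 0.87, adjusted p = 0.0001707). The ratio of covered to covering level rose as well (log2 1.41, SE 0.27, adjusted p = 0.002282).

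XLOC_006827, a protein-coding locus of 37126 nt, 22 exons on chromosome 13 (6579120 to 6648033), kept some counts and had little spread. It had 42.7, 38.6, 36.9 and 43.8 FPKM untreated and 136, 129, 141 and 128 FPKM with IL-4. The groups lay far apart and libraries within a group were alike (log2 fold change 1.72, SE 0.07, adjusted p = 1.089e-07). Its tail-to-tail covering locus stood at 10.7 ± 0.933 FPKM untreated and 10.1 ± 0.143 FPKM with IL-4 and was not called (adjusted p = 0.4245). The ratio between them rose (log2 1.79, SE 0.11, adjusted p = 4.061e-06).

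A protein-coding locus of 13943 nt, 5 exons on chromosome 15 (39569081 to 39594973) rose more steeply by fold, from a lower level. Untreated libraries had 15.5, 34.3, 34.2 and 25.6 FPKM and IL-4 libraries 160.4, 195, 199 and 135 FPKM. The groups were wide apart, with untreated replicate 1 again the lowest (log2 fold change 2.70, SE 0.25, adjusted p = 1.77e-05). Its covering locus was too low to be tested, at 0.565 ± 0.117 FPKM untreated and 1.47 ± 0.511 FPKM with IL-4.

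The largest called rise by fold on this scale was at a low locus, a single-exon non-coding one of 656 nt on chromosome 4 (63245248 to 63245903). It had 0.200, 0.831, 0.0832 and 0.643 FPKM untreated and 3.01, 4.28, 4.28 and 1.47 FPKM with IL-4. The groups did not overlap, but both spread widely (log2 fold change 2.82, SE 0.54, adjusted p = 0.001854). With a pseudocount of 1 in place of 0.1 its log2 fold change was 1.53. It lies in the last exon of a protein-coding locus of 131 ± 4.70 FPKM untreated and 160.4 ± 6.70 FPKM with IL-4, which rose (log2 fold change 0.29, adjusted p = 0.00136). The isoforms of that locus that reach the covered one had 3.95 FPKM untreated and 16.6 FPKM with IL-4, above the covered level in both groups. Whether reads of those isoforms enter its value was not tested.

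The other 6 of the 10 largest rises were protein-coding and had groups that did not overlap. At chromosome 6 (42297889 to 42315564) the summed level was 7.49 ± 0.434 FPKM untreated and 36.3 ± 7.52 FPKM with IL-4 (log2 fold change 2.24). That on chromosome 16 (11061038 to 11075758) went from 0.759 ± 0.240 to 3.72 ± 0.389 FPKM (log2 fold change 2.19, and 1.43 with a pseudocount of 1). On chromosome 3 (60799511 to 60816168) the level went from 5.76 ± 0.483 to 18.7 ± 0.715 FPKM (log2 fold change 1.68), and its covering locus rose from 0.849 ± 0.1001 to 2.63 ± 0.109 FPKM (log2 fold change 1.53, adjusted p = 2.747e-06). All 3 went up several-fold from levels under 10 FPKM. At chromosome 8 (35867948 to 35894760) there were 11.1 ± 1.90 FPKM untreated and 30.5 ± 2.38 FPKM with IL-4 (log2 fold change 1.47), while its covering locus fell from 9.42 ± 1.67 to 6.41 ± 0.415 FPKM (log2 fold change -0.53, adjusted p = 0.004195). On chromosome 11 (72986756 to 72996664) the level went from 4.33 ± 0.251 to 10.5 ± 0.667 FPKM (log2 fold change 1.26). A locus with 0 counts, on chromosome 14 (71174188 to 71186476), had 72.2 ± 3.40 FPKM untreated and 167 ± 8.24 FPKM with IL-4 (log2 fold change 1.21), and its covering locus rose from 1.33 ± 0.234 to 2.92 ± 0.0973 FPKM (log2 fold change 1.09, adjusted p = 9.157e-05). The ratio of covered to covering level was not called at the loci of chromosome 3 (log2 0.16, adjusted p = 0.1466) and chromosome 14 (log2 0.11, adjusted p = 0.4955). It depended on the pseudocount at these low covering loci. With 1 it was called (log2 0.57 and 0.44, adjusted p = 9.528e-05 and 0.003022, limma). With 0.01 it was not (log2 0.074 and 0.062, adjusted p = 0.5034 and 0.7309, limma). Adjusted p-values of these 6 by limma with Benjamini-Hochberg adjustment ran from 1.353e-07 to 1.382e-05.

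**Figure D3:**
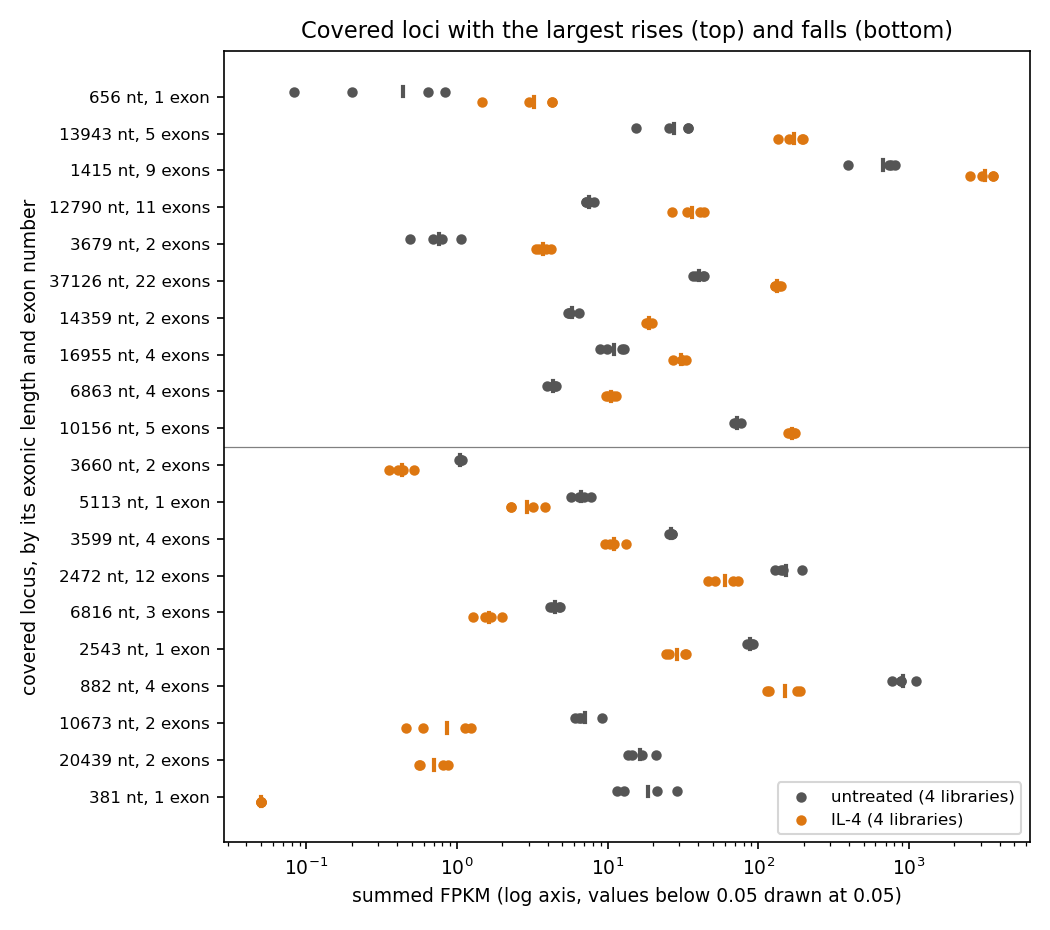
Summed FPKM (log x axis, values below 0.05 drawn at 0.05) in each library for the 10 largest called rises (top) and the 10 largest called falls (bottom) among covered loci of at least 200 nt whose groups do not overlap, labelled by exonic length and exon number. Points are libraries and ticks are group means. The 381-nt locus sits at the left edge in all 4 IL-4 libraries.

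The largest fall was at a single-exon protein-coding locus of 381 nt on chromosome 13 (23776101 to 23776481). The untreated libraries had 11.5, 21.3, 12.9 and 28.8 FPKM and the IL-4 libraries 9.098e-06, 1.051e-05, 9.559e-06 and 1.335e-05 FPKM. All 4 IL-4 libraries were thus listed at practically 0. Its log2 fold change depends on the pseudocount, at -7.45 with 0.1, -4.21 with 1 and -10.76 with 0.01 (adjusted p = 5.944e-08 with 0.1), and no fold is given. The locus lies in the first exon of a protein-coding locus of 116 ± 4.81 FPKM untreated and 215 ± 5.66 FPKM with IL-4, which rose (log2 fold change 0.89, adjusted p = 1.018e-06). All of that FPKM was on isoforms that reach the covered locus. How the authors' program split the shared reads in either group was not tested, and there are no counts here to set beside the values.

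XLOC_018902, a protein-coding locus of 20439 nt, 2 exons on chromosome 4 (129190825 to 129212063), fell to under 1 FPKM. It had 21.0, 14.6, 13.7 and 16.8 FPKM untreated and 0.873, 0.561, 0.567 and 0.808 FPKM with IL-4. The groups lay far apart in every library (log2 fold change -4.37, SE 0.17, adjusted p = 1.091e-07). The locus it meets tail to tail, on chromosome 4 (129191984 to 129219890), is also a covered locus and lies under it in turn. That partner had 1.77, 1.40, 1.50 and 1.65 FPKM untreated and 1.42, 1.67, 1.63 and 1.65 FPKM with IL-4. Its groups overlapped and it was not called (log2 fold change 0.01, SE 0.10, adjusted p = 0.9446). The ratio between the loci changed by as much as the falling locus (log2 -4.38, SE 0.18, adjusted p = 3.305e-07).

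XLOC_006129, a protein-coding locus of 882 nt, 4 exons on chromosome 12 (104672083 to 104681890), was among the highest covered loci in untreated cells and had 0 counts. It had 892, 891, 770.4 and 1117 FPKM untreated and 189, 119, 114 and 181 FPKM with IL-4. Every IL-4 library lay far below every untreated one (log2 fold change -2.63, SE 0.19, adjusted p = 3.666e-06). Its covering locus stood at 70.4 ± 10.6 FPKM untreated and 63.7 ± 5.27 FPKM with IL-4 and was not called (log2 fold change -0.14, adjusted p = 0.331). The ratio fell (log2 -2.50, SE 0.21, adjusted p = 1.751e-05).

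The other 7 of the 10 largest falls held 5 protein-coding and 2 non-coding loci. The coding one on chromosome 18 (62304905 to 62340456) went from 7.11 ± 1.39 to 0.858 ± 0.389 FPKM (log2 fold change -2.99). The single-exon coding one on chromosome 2 (125498836 to 125501378) went from 88.8 ± 3.42 to 29.1 ± 4.64 FPKM (log2 fold change -1.62), inside an inner exon of a covering locus under 1 FPKM. The one on chromosome 6 (113284118 to 113293916) went from 153 ± 29.5 to 59.8 ± 13.1 FPKM (log2 fold change -1.37). These 3 fell over a wide range of starting levels. On chromosome 7 (133728522 to 133732606) the level went from 26.3 ± 0.579 to 11.0 ± 1.55 FPKM (log2 fold change -1.26) and its covering locus fell too. On chromosome 10 (98570769 to 98575881) it went from 6.70 ± 0.846 to 2.90 ± 0.769 FPKM (log2 fold change -1.21). Both non-coding loci were low: that on chromosome 5 (31856108 to 31873976) went from 4.50 ± 0.336 to 1.62 ± 0.296 FPKM. The other, on chromosome 7 (31742428 to 31746638), went from 1.05 ± 0.0246 to 0.429 ± 0.0699 FPKM (log2 fold change -1.13, and -0.52 with a pseudocount of 1). Adjusted p-values of these 7 by limma with Benjamini-Hochberg adjustment ran from 1.938e-06 to 0.0003485, and in all 7 the groups did not overlap.

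Levels were highest at 6 covered loci, of which XLOC_012777 was described with the rises. The locus on chromosome 7 (52710163 to 52716820) had 3161, 3294, 3303 and 3198 FPKM untreated and 3402, 3691, 3285 and 4104 FPKM with IL-4. The groups overlapped and it was not called (log2 fold change 0.16, SE 0.10, adjusted p = 0.2172). It had 0 counts, under a covering locus of 7.36 ± 0.934 FPKM untreated and 6.54 ± 1.05 FPKM with IL-4. The locus on chromosome 9 (78322370 to 78329881) had 2126 ± 89.6 FPKM untreated and 1869 ± 23.5 FPKM with IL-4. Its groups did not overlap, and it was not called (log2 fold change -0.18, SE 0.07, adjusted p = 0.05961), although a filter at 5 FPKM brought its adjusted p to 0.04299. The 221-nt, single-exon non-coding locus at chromosome 2 (144091718 to 144091938) had 1913, 2021, 2575 and 2305 FPKM untreated and 2296, 1191, 1551 and 1372 FPKM with IL-4, with groups that overlapped, and was not called (log2 fold change -0.49, SE 0.19, adjusted p = 0.05842). With all 8 libraries it was called after scaling to equal totals (log2 fold change -0.51, adjusted p = 0.04026) and after quantile scaling (-0.63, adjusted p = 0.01747). Without IL-4 replicate 1 it was called as well (-0.68, adjusted p = 0.003976).

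The remaining pair of high loci spans nearly the whole mitochondrial chromosome, 1 on each strand, and each covers the other. Mitochondrial DNA is transcribed from both strands into long transcripts that are then cut. The plus-strand locus, which joins 8 reference transcripts and so stands for several genes, had 1659, 2790.4, 2985 and 2453 FPKM untreated and 3067, 4501, 4227 and 4039.7 FPKM with IL-4. The groups did not overlap and it rose (log2 fold change 0.70, SE 0.20, adjusted p = 0.01526). Without both replicate 4 libraries its adjusted p was 0.06317. The minus-strand locus had 1101, 1816, 2153 and 1685 FPKM untreated and 1925, 1989.8, 2191 and 1739.8 FPKM with IL-4, with overlapping groups, and was not called (log2 fold change 0.25, SE 0.19, adjusted p = 0.2896). The ratio of plus to minus strand rose (log2 0.45, SE 0.12, adjusted p = 0.01371), and without both replicate 4 libraries its adjusted p was 0.07143.

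Covered loci together held 4.94 ± 0.248% of all summed FPKM in the untreated libraries and 5.70 ± 0.292% in the IL-4 libraries (SD, n = 4 each). The share was 4.68, 4.84, 5.27 and 4.94% untreated and 5.35, 5.92, 5.95 and 5.56% with IL-4, and the groups did not overlap. The difference of 0.759 percentage points had p = 0.02857 in a two-sided exact permutation test, the smallest that 4 against 4 libraries can give, and 0.02857 after adjustment over the 3 shares tested. The other shares tested were those of covered loci of at least 200 nt (difference 0.761 points) and of covered loci off chromosome M. The latter went from 4.22% to 4.68%, a difference of 0.465 points. Both had p = 0.02857 in the same permutation test. XLOC_012777 alone went from 0.117% to 0.550%, a difference of 0.434 points. Without XLOC_012777 the difference for the share of all covered loci was 0.325 points (exact permutation p = 0.08571). Without it and both mitochondrial loci it was 0.0316 points (exact permutation p = 0.6857), so the difference in share lay mainly on these 3 loci.

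Short covered loci were mostly at 0. All 113 of them had 0 counts and 104 were listed at 0 FPKM in every library. Short non-coding loci outside the set were alike: of 3851, 3486 had 0 counts and 3817 were at 0 FPKM in every library. The 5 short covered loci that were tested had values between 0 and 145.6 FPKM. In 4 of them both groups held libraries near 0 and others well above it. The one on chromosome 17 (24857734 to 24857850), of 117 nt, is typical: 29.0, 0.00, 145.6 and 136 FPKM untreated and 0.00, 129, 0.00 and 36.7 FPKM with IL-4. Its groups overlapped over nearly their whole range.

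Isoforms of the covered loci were tested in the same way. Of 1571 isoforms, 547 were tested, 114 rose and 83 fell. Over all 17500 isoforms tested 38.4% were called, 19.8% rising and 18.5% falling. Reference isoforms made up 475 of the 547 tested, with 106 rises and 76 falls, and class j variants 70, with 8 rises and 6 falls. At 18 loci an isoform was called while the sum was not. At 3 of the 120 loci with several tested isoforms, isoforms were called in opposite directions.

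The first of these 3 was a protein-coding locus on chromosome 17 (71193545 to 71202872) whose sum was not called (log2 fold change 0.17, SE 0.08, adjusted p = 0.09609). It was called without IL-4 replicate 1 (log2 fold change 0.23, adjusted p = 0.03831). A reference isoform of 1720 nt had 1.01, 2.07, 0.985 and 1.34 FPKM untreated and 2.41, 2.29, 2.66 and 2.61 FPKM with IL-4, and rose (adjusted p = 0.01228). Another of 1380 nt had 3.76, 3.63, 3.66 and 3.36 FPKM untreated and 1.60, 2.71, 2.51 and 2.54 FPKM with IL-4, and fell (adjusted p = 0.01477). In both the groups did not overlap. The most abundant isoform, of 1634 nt, stood at 15.8 ± 1.48 FPKM untreated and 18.7 ± 1.45 FPKM with IL-4 and was not called (adjusted p = 0.05605).

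The second was a protein-coding locus on chromosome 3 (90302880 to 90314045). Its 1964-nt reference isoform went from 2.60 ± 0.997 to 6.37 ± 0.413 FPKM and rose (adjusted p = 0.00152), and a class j variant of 2304 nt went from 4.57 ± 0.240 to 5.91 ± 0.151 FPKM and rose (adjusted p = 0.00318). Its most abundant isoform, of 3247 nt, went from 10.7 ± 0.501 to 9.34 ± 0.389 FPKM and fell (adjusted p = 0.0358). The sum of the locus was called as a rise near the threshold (log2 fold change 0.15, SE 0.06, adjusted p = 0.04942). That call was lost when any of 7 of the 8 libraries was left out, untreated replicate 1 being the exception, with adjusted p up to 0.1273. With all libraries kept it was also lost after scaling to equal totals (adjusted p = 0.1334), after quantile scaling (0.1161) and with reference isoforms alone (0.1055).

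The third was a long non-coding locus of 30063 nt on chromosome 19 (5816427 to 5846489). A class j isoform of 29754 nt had 0.631, 0.850, 1.33 and 0.539 FPKM untreated and 2.60, 2.39, 2.68 and 1.55 FPKM with IL-4, and rose (adjusted p = 0.004661). An isoform of 152 nt was called as a fall (adjusted p = 0.0352), but had 0.880, 30.0, 15.0 and 39.1 FPKM untreated and 7.50, 0.00, 0.00 and 0.00 FPKM with IL-4, and its groups overlapped. The most abundant isoform, of 3177 nt, stood at 100.6 ± 27.3 FPKM untreated and 80.2 ± 8.73 FPKM with IL-4 and was not called (adjusted p = 0.3142). The sum was not called (log2 fold change -0.42, SE 0.25, adjusted p = 0.1912) and depended on untreated replicate 1, which at 63.4 FPKM lay below the other 3 untreated libraries at 142 to 149 FPKM. Without that library the log2 fold change was -0.72 (adjusted p = 0.0001458).

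The ratio of a covered locus to its covering locus was compared next, to see whether overlapping loci changed by different amounts. Both loci passed the FPKM filter in 282 pairs. The ratio was called in 126 of them, 82 up and 44 down, or 44.7%. Over all 2654 ordered pairs of overlapping loci the share was 50.6%. Covered loci that cover each other enter once from each side, so a called ratio there counts as a rise and as a fall. The mitochondrial loci and XLOC_018902 with its partner are such cases. The covered locus was the higher one in 185 of the 282 pairs, with a median level ratio of 2.88. Both loci rose in 19 pairs and both fell in 21. Only the covered locus was called in 72 pairs, only the covering one in 71, and neither in 82. Across the 282 pairs the log2 fold changes had a Pearson r of 0.158 and a Spearman rho of 0.276. Both correlations are descriptions, since both loci of a pair share reads and libraries and some loci enter several pairs.

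**Figure D4:**
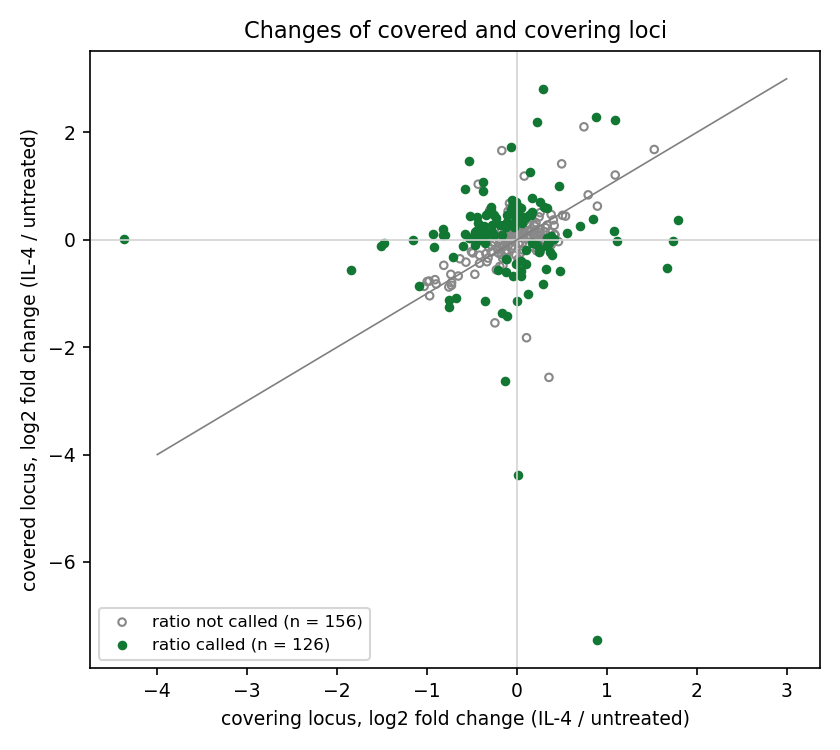
Log2 fold change (IL-4 over untreated, log2(FPKM + 0.1) scale) of the covering locus (x axis) and the covered locus (y axis) in 282 pairs, with pairs whose ratio passed the limma test filled. The line marks equal change. The cloud is spread around 0 on both axes with a Spearman rho of 0.276, and the 126 filled pairs lie away from the line.

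The ratio between XLOC_018902 and its partner was the largest rise when read from the partner's side (log2 4.38). The next rises were at the 656-nt locus of chromosome 4 (log2 2.52), and at the named rises of chromosome 8 (log2 2.01) and chromosome 16 (log2 1.97). In 3 of these 4 pairs the covered locus itself rose, and in the first its covering locus fell.

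In 17 pairs the loci were called in opposite directions, and the ratio was called in all 17. The covered locus rose and the covering one fell in 11, and the reverse held in 6. A called ratio is likely once both loci are called in opposite directions. The share of such pairs over all overlapping pairs was not determined. All 17 covered loci were protein-coding, as were those of 231 of the 282 pairs tested. The highest was on chromosome 2 (174252995 to 174264493), named here after its values were seen. It went from 836 ± 79.8 to 1763 ± 76.6 FPKM (log2 fold change 1.08, SE 0.08, adjusted p = 6.728e-06), while its covering locus went from 8.77 ± 1.15 to 6.68 ± 0.430 FPKM (log2 fold change -0.38, adjusted p = 0.00903). A locus on chromosome 7 (109387637 to 109398632) showed the reverse. It had 11.9, 14.5, 16.6 and 14.9 FPKM untreated and 9.83, 10.8, 9.17 and 10.2 FPKM with IL-4, so that the groups did not overlap, and it fell (log2 fold change -0.52, SE 0.10, adjusted p = 0.001954). Its covering locus went from 24.3 ± 1.14 to 78.0 ± 10.4 FPKM (log2 fold change 1.67, adjusted p = 7.66e-07), and the ratio fell (log2 -2.19, SE 0.14, adjusted p = 5.19e-06).

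A small number of covered loci kept reads in their uncovered exonic nt, and these give a second measure. Of the tested loci, 22 had at least 80 counts over all libraries, with a median of 460 uncovered nt. Counts are given as CPM, each locus's count divided by its library's total, and were not tested. Of the 22 loci, 10 were called on FPKM. In 9 of the 10 the remaining counts differed in the same direction, 7 of them with groups that did not overlap. Of the 12 loci not called on FPKM, 8 had the same direction in CPM and 4 the other, and 1 had CPM groups that did not overlap. That locus, on chromosome 3 (87941823 to 87981996), had 0.823 CPM untreated and 0.567 CPM with IL-4, and an adjusted p of 0.3757 on FPKM. Among the called loci the exception was a locus on chromosome 11 (62363300 to 62370154), called as a rise of 0.21 on the log2 FPKM scale, with 10.8 ± 2.54 CPM untreated and 10.6 ± 1.09 CPM with IL-4. XLOC_006827 had 8.87 ± 0.906 CPM untreated and 25.1 ± 2.04 CPM with IL-4. XLOC_018902 had 2.92 ± 0.291 CPM untreated and 0.203 ± 0.101 CPM with IL-4. At both loci the groups did not overlap in CPM, as in FPKM. The counts come from the short uncovered stretches only, and from the same libraries as the FPKM. How often CPM groups fail to overlap over all loci was not determined.

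**Figure D5:**
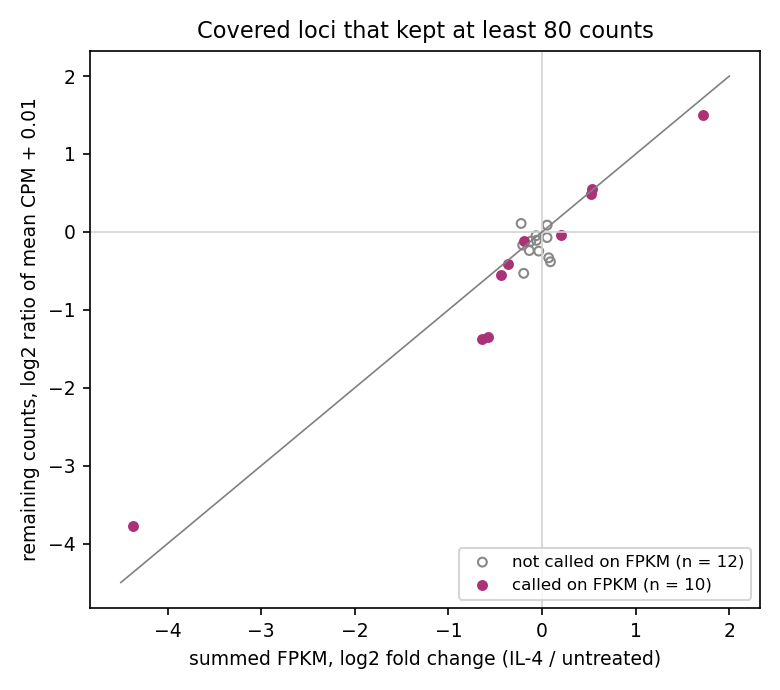
Log2 fold change of summed FPKM (x axis) and log2 ratio of mean remaining CPM, with 0.01 added (y axis), for the 22 covered loci with at least 80 counts. The line marks equal values. Of the 10 filled loci called on FPKM, 9 lie on the same side of 0 on both axes.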

How the data were processed

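RNA of 4 untreated and 4 IL-4-treated macrophage samples was sequenced. Per the submitters' processing notes, the tools were HTSeq, Cufflinks 2.1.1, TopHat2 2.0.9 and CASAVA 1.8.2, and the build was mm9. Their settings, such as how strand and ambiguous reads were treated, are not given in the sources used here. Whole-number counts of 31020 loci, FPKM values of 89208 isoforms and a merged annotation with 89219 transcripts were deposited by the authors. Columns were assigned to samples through the library codes of the labels. Covered loci were found from the exons of that annotation. The covering locus is the one that shares most exonic nt with the covered locus.

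FPKM of the isoforms of a locus were summed. Loci, isoforms and ratios of overlapping loci were each fitted with limma 3.58.1 in R 4.3.3 (variance trend, no replicate block) on log2(FPKM + 0.1), for features with at least 1 FPKM in at least 4 libraries, with Benjamini-Hochberg adjustment over all features tested and a threshold of 0.05. The procedures were tested on simulated data. Shares of FPKM were compared by exact permutation (numpy 2.4.6). Counts were only described: totals per library ran from 23071022 to 27783417, and depth behind FPKM is unknown, so no interval is given.

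Named loci are, among those of at least 200 nt, the 10 largest called rises and 10 largest called falls with groups that do not overlap and the 6 highest means; up to 3 rises and 3 falls among shorter loci (0 were called); loci with isoforms called in opposite directions; the 4 largest ratio rises and 4 largest ratio falls; and 3 loci on each side of the overlap threshold. The lists of marker and pathway genes were not used because no ID matched a gene name. The members and lists were chosen with earlier results of these data known. Alternatives were other pseudocounts, filters, scalings, overlap thresholds and isoform classes, a replicate block, and each library left out in turn.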

Additional observations from a re-analysis of the deposited data

Results flagged for a closer look

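In 2 of the 72 groups of 4 libraries checked among the named loci, 1 library stood apart from the other 3 by Dixon's criterion at the 95% level; chance alone gives about 1 in 20 groups. The long non-coding locus on chromosome 19 (5816427 to 5846489) had 63.4 FPKM in untreated replicate 1, against 142 to 149 FPKM in the other 3 untreated libraries. The protein-coding locus on chromosome 4 (129191984 to 129219890), which lies under XLOC_018902, had 1.42 FPKM in IL-4 replicate 1, against 1.63 to 1.67 FPKM in the other 3 IL-4 libraries.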

How the results depend on the processing

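At full overlap, with 181 loci, 276 isoforms and 164 pairs tested, 44 covered loci rose and 33 fell, 56 isoforms rose and 40 fell, and 43 ratios rose against 25 that fell. A filter at 5 FPKM left 142 pairs, with 43 ratio rises and 25 ratio falls. Fewer members were tested in each of these. With 1 library left out in turn, 77 to 99 loci rose and 61 to 69 fell, 95 to 130 isoforms rose and 69 to 91 fell, and 74 to 85 ratios rose and 38 to 45 fell. Quantile scaling gave 76 rises and 84 falls, so falls then outnumbered rises among covered loci; the cause was not tested.

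The difference in share of FPKM ran from 0.673 to 0.874 points with 1 library left out, and its exact p was 0.05714 when the library left out was 1 of untreated replicates 1, 2 and 4 and IL-4 replicates 2 and 3. Without both replicate 4 libraries it was 0.806 (exact p = 0.1, the smallest possible there), within replicate pairs 0.759 (exact p = 0.125, likewise the smallest). Left out after the data were seen, XLOC_012777 took it to 0.325 points and XLOC_012777 with chromosome M to 0.0316 points.

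Same-numbered libraries of the groups had deviations that correlated between -0.11 and 0.26, so the numbers were not taken as pairing the samples, and not every library correlated best with its own number. With the replicate block, 95 loci rose and 75 fell, 121 isoforms rose and 87 fell, and 86 ratios rose and 51 fell.

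For the 33 named loci and their ratios, 926 of 973 values under alternatives kept their direction and side of the threshold, 16 passed it newly, 15 lost it and 16 changed sign, 0 of them with a call before or after. Quantile scaling turned the locus on chromosome 7 (52710163 to 52716820) to -0.030 and the ratios at chromosome 14 (71174188 to 71186476) to -0.015 and chromosome 9 (78322370 to 78329881) to -0.21. Equal totals turned the partner of XLOC_018902 to -0.0083. With 1 library left out, the sign was not fixed for that partner (-0.042 to 0.064), for the locus on chromosome 1 (193149844 to 193176804; -0.13 to 0.036, its ratio -0.19 to 0.034), or for the ratios on chromosome 9 (78322370 to 78329881; -0.0048 to 0.079) and chromosome 3 (87941823 to 87981996; -0.25 to 0.018). The causes were not tested. After quantile scaling the level on chromosome 9 passed at -0.39 (adjusted p = 0.002409, limma). Depth behind single FPKM values is unknown, and short loci mostly lack a value.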
